A study of Mus musculus with 6 samples.

Results

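The matrix metalloproteinases (MMPs) and their tissue inhibitors (TIMPs) are described here by 10 genes chosen by symbol, namely Mmp2, Mmp3, Mmp9, Mmp11, Mmp13, Mmp14, Mmp16, Timp1, Timp2 and Timp3. All 10 were present among the 39179 genes listed for the series, each once. RNA was measured in Ocy454 cells, a mouse osteocytic line used as a single-cell subclone, after 14 days at the higher of its culture temperatures. Cells of all groups were grown alike and then received for 4 h either vehicle (PBS with HCl), 1 nM of the parathyroid hormone fragment PTH (1-34), or 0.5 µM YKL-05-093, a small-molecule inhibitor of salt-inducible kinases (SIKs). For cultured cells the study's methods dissolve compounds in DMSO, and for mice they dissolve YKL-05-093 in PBS with HCl. The labels name no DMSO in the vehicle, so whether the solvents differed here is not known. A solvent difference and the effect of YKL-05-093 cannot be told apart in its comparisons with vehicle. Those methods do not say whether cells given PTH received DMSO, so the comparison of PTH with YKL-05-093 has the same limit. Each condition had 2 libraries, and nothing in the labels says whether they came from separate cultures, so p-values measure the spread between these libraries, which may be technical.

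MMPs are zinc-dependent endopeptidases that are made as inactive proenzymes and cut collagens and other matrix proteins once the propeptide is removed. TIMPs bind the active site of MMPs and block it. Osteocytes remodel the matrix around their lacunae and canaliculi with enzymes of this family. MMP13, the main interstitial collagenase of rodents, is a well-known target of PTH in cells of the osteoblast lineage.

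The values are RPKM (reads scaled to the exon length of the gene and to the library total), so that levels of different genes can be compared. Library totals ran from 17505798 to 27983585 reads. The vehicle libraries differed most from each other, with a median absolute difference of 0.333 on the log2 scale over the genes tested, against 0.108 between the PTH libraries and 0.103 between the YKL-05-093 libraries. Of 11 osteocyte and osteoblast markers, 8 passed the filter on low values, which asked for 0.5 RPKM or more in 2 or more of the 6 libraries. The defining osteocyte markers Sost and Fgf23 never exceeded 3 reads, the floor used for detection, and Dmp1 ranged from 0.376 to 1.15 RPKM. Mepe, also an osteocyte marker, was lower still, at 0 to 0.136 RPKM or 0 to 4 reads, and did not pass the filter. Phex and Pdpn were higher, at 0.764 to 4.93 RPKM and 53.1 to 171 RPKM. In bulk RNA, fewer cells of a type and less RNA per cell cannot be told apart.

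The Mmp13 gene lies on chromosome 9, where it (chr9:7272514-7283331, plus strand) is the first of a cluster of 10 MMP genes and Mmp3 (chr9:7445822-7455975, plus strand) starts 173 kb further on. Upstream sequence was taken from RefSeq (GRCm38.p6) for the 7 members that matched by symbol, and Mmp2, Mmp9 and Mmp16 did not match. The 250 bases before the annotated start site were searched on both strands for the AP-1 motif TGANTCA, the RUNX motif TGTGGT, the cAMP response element TGACGTCA and its shorter form TGACG, which the full element contains. Mmp13 is shown because its RNA differed most between conditions, Mmp3 as its neighbour at the detection floor, Timp1 as the inhibitor that differed most, and Mmp14 as an abundant member that passed no test. Capitals mark AP-1, RUNX and TGACG matches on either strand, and each line reads 5′ to 3′ along the strand of the gene.
Mmp13, chr9:7272264-7272513, plus strand: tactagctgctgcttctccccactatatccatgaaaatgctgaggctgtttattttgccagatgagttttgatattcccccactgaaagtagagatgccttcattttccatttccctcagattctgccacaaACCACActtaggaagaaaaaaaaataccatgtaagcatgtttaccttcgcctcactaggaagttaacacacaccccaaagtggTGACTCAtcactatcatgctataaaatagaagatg
Mmp3, chr9:7445572-7445821, plus strand: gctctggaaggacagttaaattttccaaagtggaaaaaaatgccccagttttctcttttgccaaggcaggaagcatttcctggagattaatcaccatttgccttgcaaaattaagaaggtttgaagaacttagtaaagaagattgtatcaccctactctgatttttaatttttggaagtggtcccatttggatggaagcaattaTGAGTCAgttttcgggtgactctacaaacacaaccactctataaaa
Timp1, chrX:20869916-20870165, plus strand: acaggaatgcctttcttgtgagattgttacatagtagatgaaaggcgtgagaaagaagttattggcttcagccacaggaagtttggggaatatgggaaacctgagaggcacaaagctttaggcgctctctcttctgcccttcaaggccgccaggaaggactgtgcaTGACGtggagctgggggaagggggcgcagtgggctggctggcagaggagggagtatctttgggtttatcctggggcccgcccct
Mmp14, chr14:54431348-54431597, plus strand: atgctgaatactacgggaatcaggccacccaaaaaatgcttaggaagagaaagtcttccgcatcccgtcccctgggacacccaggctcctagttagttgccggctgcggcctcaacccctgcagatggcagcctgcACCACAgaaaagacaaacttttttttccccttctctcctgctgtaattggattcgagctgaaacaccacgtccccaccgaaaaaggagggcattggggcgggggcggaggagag

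The Mmp13 sequence held an AP-1 match at -35 to -29 and a RUNX match at -118 to -113, counted from the base before the start site as -1. An AP-1 match was also present in Mmp3, at -46 to -40. Of the 7 members with a sequence, 2 held AP-1, against 6.75% of 32851 RefSeq promoters of the same length. RUNX matches were found in Mmp13 and Mmp14, and in 14.0% of all promoters. TGACG was found in Timp1 alone among the 7, at -84 to -80, and in 17.8% of all promoters, while the full cAMP response element was in none of the 7 and in 1.55% of all. Mmp11, Timp2 and Timp3 held none of the motifs searched. These are matches of letters and not mapped binding sites.

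Levels of the members spanned several orders of magnitude. In vehicle the order of mean RPKM was Timp2 (259), Mmp14 (173), Mmp2 (139), Timp1 (84.3), Mmp11 (21.4), Timp3 (18.5), Mmp16 (5.59), Mmp9 (0.449), Mmp13 (0.285) and Mmp3 (0.0200). Only Mmp14 and Mmp2 overlapped among neighbours in that order. With PTH and with YKL-05-093, Mmp2 stood above Mmp14, and Mmp11 and Timp3 were the neighbours that overlapped. Mmp13 ranked below Mmp9 in vehicle and YKL-05-093 and above it in PTH.

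The gelatinase Mmp2 and the membrane-anchored Mmp14 made up 91.1% to 94.9% of the summed RPKM of the 7 MMPs in every library. Mmp13 supplied 0.0768% to 0.0900% of that sum in vehicle, 0.367% to 0.670% in PTH and 0.0361% to 0.0627% in YKL-05-093. Among these 7 MMPs the RNA was therefore carried by the same pair of genes in all conditions. Mmp13 stayed a small share of the sum even where it was highest. Timp2 accounted for 66.9% to 76.5% of the TIMP sum in vehicle, 60.8% to 61.9% in PTH and 70.4% to 71.8% in YKL-05-093. The ratio of the TIMP sum to the MMP sum lay between 0.921 and 1.25 in the vehicle libraries, and the 4 treated libraries fell inside that range.

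**Figure D1:**
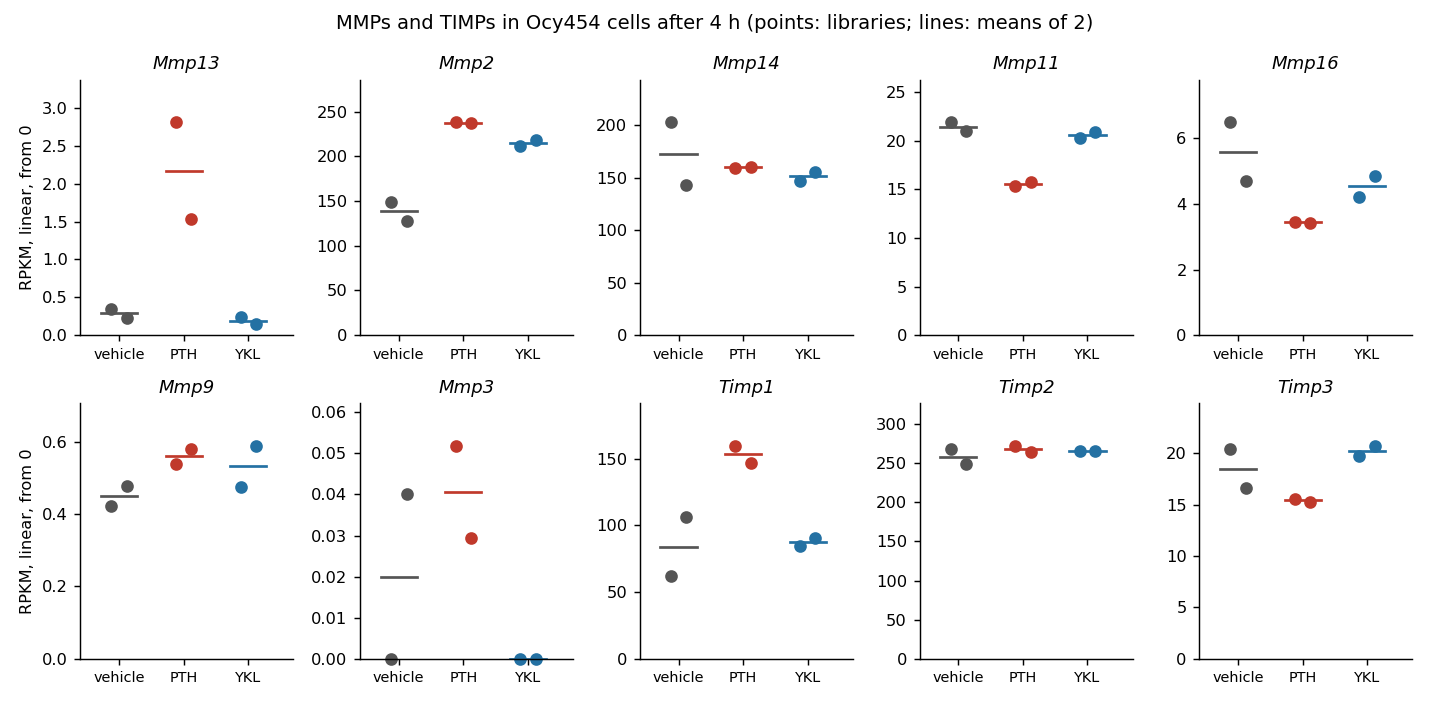
RPKM (linear axes from 0, a scale of its own for each gene) of the 10 members in vehicle, PTH and YKL-05-093 (YKL) libraries, with points for single libraries and lines for the mean of 2. Mmp13 lies at 1.53 and 2.81 in PTH and at most at 0.343 elsewhere, Mmp2 is above vehicle in both treatments, and Timp1 is highest in PTH.

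Mmp13, the collagenase, was higher with PTH than with vehicle and was the only member to pass the test in that comparison. Its RPKM was 0.343 and 0.228 in vehicle, 2.81 and 1.53 in PTH, and 0.240 and 0.145 in YKL-05-093. Both PTH libraries lay above all others, and the vehicle and YKL-05-093 libraries overlapped. The reads behind these values, recovered from the steps between RPKM values, numbered 16 and 17 in vehicle, 162 and 78 in PTH, and 13 and 8 in YKL-05-093. With exact Poisson intervals, which cover counting error only, the PTH libraries were at 2.40 to 3.28 and 1.21 to 1.92 RPKM, and the highest bound outside PTH was 0.557. The PTH libraries thus also differed from each other by more than counting error.

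Mean Mmp13 was 2.17 ± 0.904 RPKM in PTH and 0.285 ± 0.0813 in vehicle (SD, n = 2), a ratio of 7.62. On the log2(RPKM + 0.1) scale, which understates changes of low genes, the difference was 2.52 (SE 0.34, 95% interval 1.73 to 3.31, limma adjusted p = 0.0136). Of the 9 members tested 1 passed at an adjusted p under 0.05, beside 2.19% of the 14261 genes tested (1.26% higher and 0.940% lower with PTH). Mmp13 passed the filter on low values only through its PTH libraries, so its place among the genes tested already required a difference. Leaving out PTH replicate 1 gave 2.10 (adjusted p = 0.219) and leaving out PTH replicate 2 gave 2.93 (adjusted p = 0.0572), in the same limma test. With all libraries it missed the limma threshold when no filter was set (adjusted p = 0.132), with the prior spread set by the mean level (adjusted p = 0.0665) and with no trend of the spread (adjusted p = 0.0887).

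Some markers of bone and cartilage cells moved in the same comparison. Of 8 osteocyte and osteoblast markers tested, Pdpn, podoplanin (1.44, limma adjusted p = 0.0151), and Bglap, osteocalcin (1.58, limma adjusted p = 0.0292), were higher with PTH on the log2 scale, and Sp7, the osteoblast factor osterix, was lower (-1.97, limma adjusted p = 0.00195). The summed level of the 11 osteocyte and osteoblast markers was 469 to 578 RPKM in vehicle, 656 to 732 in PTH and 544 to 637 in YKL-05-093. Most of it was Col1a1, which passed no test, with means of 324 RPKM in vehicle, 400.3 in PTH and 362 in YKL-05-093. From vehicle to PTH, mean Pdpn went from 62.2 to 167 RPKM, Sp7 from 45.8 to 11.6 and Runx2 from 16.3 to 7.45. The sum therefore does not show the markers rising as a set. Of 4 chondrocyte markers 2 were tested, Col2a1 and Sox9, and Acan never exceeded 3 reads. Col2a1 was higher with PTH (1.30, limma adjusted p = 0.0151), while its YKL-05-093 difference was 0.28 (limma adjusted p = 0.809). Sox9 differed by 0.06 with PTH (limma adjusted p = 0.949) and by 0.79 with YKL-05-093 (limma adjusted p = 0.272). The sum of the 4 chondrocyte markers was 1.83 to 2.40 RPKM in vehicle, 3.29 to 3.33 in PTH and 3.35 to 3.50 in YKL-05-093. The treated sums rest on different genes. Mean Col2a1 was 0.601 RPKM in vehicle, 1.62 in PTH and 0.750 in YKL-05-093, and mean Sox9 was 1.42, 1.46 and 2.50. Without either PTH library the calls of Pdpn, Bglap, Sp7 and Col2a1 were lost as well. The part of these markers in the Mmp13 result was not tested.

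In the YKL-05-093 comparison Kdr, the one endothelial marker tested of 3, was higher (1.42, limma adjusted p = 0.0389) and Cdh5 never exceeded 3 reads. The sum of the 3 was 0.513 to 0.652 RPKM in vehicle, 0.910 to 1.16 in PTH and 1.48 to 1.79 in YKL-05-093. The Kdr call was lost without vehicle replicate 1 or without either YKL-05-093 library (limma adjusted p = 0.0829 to 0.542). All 3 adipocyte markers stayed at 3 reads or fewer.

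With YKL-05-093, mean Mmp13 was 0.193 ± 0.0677 RPKM (SD, n = 2), and the log2 difference from vehicle was -0.40 (95% interval -1.37 to 0.57, limma adjusted p = 0.868). That interval lies below the interval of the PTH difference, and the direct comparison of PTH with YKL-05-093 gave a log2 difference of 2.92 (SE 0.31, 95% interval 2.26 to 3.58, limma adjusted p = 9.46e-06) and a ratio of means of 11.3. Without PTH replicate 1 the direct difference was 2.50 (adjusted p = 0.168), and without PTH replicate 2 it was 3.34 (adjusted p = 0.135), by limma. Here too Mmp13 entered the test through its PTH libraries, and with no filter set or with no trend of the spread the limma adjusted p was 0.0658 and 0.0827. PTH and YKL-05-093 were compared with the same vehicle libraries, so their differences from vehicle are not independent.

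Genes whose pattern over the 6 libraries was most like that of Mmp13 were ranked by the root mean square distance between centred log2 profiles among 11900 genes. The 5 nearest were Cited1, a transcriptional co-regulator (distance 0.462), Dio3, the deiodinase that inactivates thyroid hormone (0.486), Net1, a guanine nucleotide exchange factor (0.558), Aldh3a1, an aldehyde dehydrogenase (0.572), and Mgp, the matrix Gla protein that restrains mineralization (0.588). Mgp, the most abundant of them, stood at 132 and 196 RPKM in vehicle, 715 and 669 in PTH, and 192 and 194 in YKL-05-093. Cited1, at a level like that of Mmp13, stood at 0.267 and 0.334 RPKM in vehicle, 2.75 and 2.56 in PTH, and 0.419 and 0.430 in YKL-05-093. These genes were picked for their likeness, and no test was made of it.

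**Figure D2:**
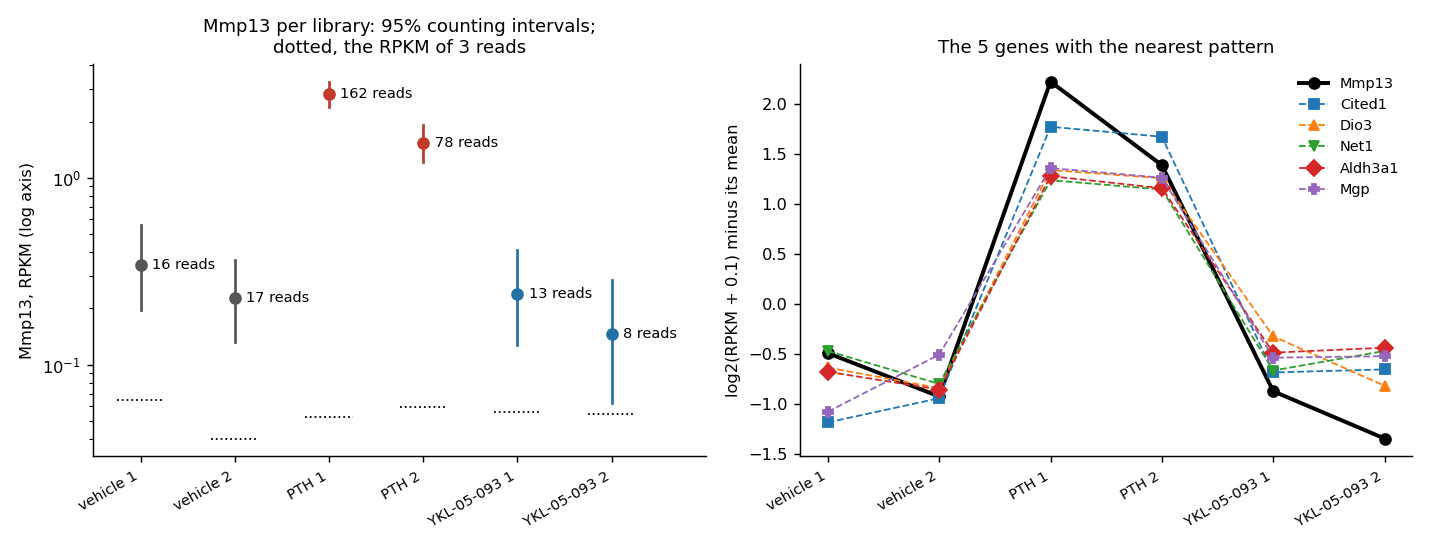
Left, Mmp13 RPKM (log axis) in each library with its 95% counting interval and read number, and a dotted line at the RPKM of 3 reads. Right, centred log2(RPKM + 0.1) of Mmp13 and of the 5 nearest genes by library, all of which peak in the PTH libraries, where Mmp13 rests on 162 and 78 reads.

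The other MMP genes of the chromosome 9 cluster gave almost no reads. Mmp3, stromelysin, was at 0 and 0.0400 RPKM in vehicle, 0.0518 and 0.0293 in PTH, and 0 in both YKL-05-093 libraries. These values are 0 to 2 reads, under the floor of 3 reads in every library, and Mmp3 was not tested. Of the 10 MMP genes in the cluster, 9 never exceeded 3 reads in a library and 4 of those were at 0 throughout. Mmp13 alone was detected above the floor there, and a difference in the others was not detectable at this depth.

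Mmp2, a gelatinase (an enzyme that cuts denatured collagen), had a higher mean with both treatments than with vehicle, although neither difference passed the test. It was at 149 and 128 RPKM in vehicle, 238 and 237 in PTH, and 212 and 218 in YKL-05-093. Every treated library lay above both vehicle libraries, and the PTH libraries lay above the YKL-05-093 libraries. The log2 difference from vehicle was 0.78 for PTH (95% interval 0.34 to 1.22, limma adjusted p = 0.104) and 0.64 for YKL-05-093 (95% interval 0.20 to 1.07, limma adjusted p = 0.295). Mmp2 was the only member at an unadjusted p under 0.05 in the YKL-05-093 comparison, where 0 of 9 members passed the limma test, beside 0.645% of 14255 genes (0.379% higher and 0.267% lower). At the unadjusted threshold 8.68% of all genes passed there, and in the PTH comparison 5 of 9 members and 13.3% of all genes did. Between PTH and YKL-05-093 the log2 difference was 0.15 (95% interval -0.02 to 0.31, limma adjusted p = 0.285). In 1 limma fit of all 6 libraries Mmp2 passed for PTH (adjusted p = 0.0228). The PTH difference was 0.89 without vehicle replicate 1 and 0.67 without vehicle replicate 2, and the YKL-05-093 difference was 0.52 without vehicle replicate 2. A fit with 1 vehicle library takes its spread from the treated pair alone, which varied less than the vehicle pair. A pass in such a fit, here or below, therefore adds no evidence of a difference. Leaving out a vehicle library moved the number of all genes past the test as well, from 313 to 1315 (without vehicle replicate 1) and 4484 (without vehicle replicate 2) for PTH, and from 92 to 44 and 2723 for YKL-05-093.

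Groups of single libraries that do not overlap were common in these data. Between PTH and vehicle, 7 of 9 members tested did not overlap, beside 43.1% of all genes tested, and between YKL-05-093 and vehicle 2 of 9 did not, beside 37.8%. With 2 libraries against 2, an exact permutation test of a single gene cannot go below p = 0.333.

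Mmp14, the membrane-type enzyme that activates pro-MMP2 on the cell surface together with TIMP2, passed no test. It was at 203 and 143 RPKM in vehicle, 159.7 and 160.3 in PTH, and 147 and 156 in YKL-05-093. The vehicle libraries spanned all treated libraries. Its log2 difference from vehicle was -0.09 for PTH (95% interval -0.60 to 0.43) and -0.17 for YKL-05-093 (95% interval -0.68 to 0.35). The direct difference was 0.08 (95% interval -0.07 to 0.23). Without vehicle replicate 2 the differences were -0.34 for PTH (limma adjusted p = 0.0405) and -0.42 for YKL-05-093 (limma adjusted p = 0.0431), and without vehicle replicate 1 they turned to 0.17 and 0.09.

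Timp2, the most abundant member and a partner of MMP14 in the activation of pro-MMP2, passed no test. Its RPKM was 268 and 249 in vehicle, 272 and 264 in PTH, and 265 in both YKL-05-093 libraries. All 3 groups overlapped. The log2 difference was 0.05 for PTH against vehicle (95% interval -0.40 to 0.50), 0.04 for YKL-05-093 against vehicle (95% interval -0.41 to 0.48) and 0.01 for PTH against YKL-05-093 (95% interval -0.17 to 0.20). Within these intervals no change of Timp2 was detected.

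Timp1, the secreted inhibitor that is inducible in many cell types, was higher with PTH than with YKL-05-093. It was at 62.2 and 106 RPKM in vehicle, 159.5 and 147 in PTH, and 84.5 and 90.9 in YKL-05-093. The PTH libraries lay above all others, whereas the vehicle libraries lay on either side of the YKL-05-093 libraries. The direct log2 difference was 0.80 (SE 0.07, 95% interval 0.66 to 0.95, limma adjusted p = 1.25e-06), with a ratio of means of 1.75. Against vehicle, whose replicates differed 1.71-fold, the PTH difference was 0.91 (95% interval 0.30 to 1.52, limma adjusted p = 0.169) and the YKL-05-093 difference was 0.11 (95% interval -0.50 to 0.72, limma adjusted p = 0.948). The PTH difference was 0.53 without vehicle replicate 1 and 1.30 without vehicle replicate 2. In the same fits the YKL-05-093 difference went to -0.28 and 0.49, respectively. Without PTH replicate 1 or 2 the direct difference did not pass (0.75 and 0.86, limma adjusted p = 0.144 and 0.123).

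Mmp11, stromelysin-3, was lower with PTH than with YKL-05-093. Its RPKM was 21.9 and 21.0 in vehicle, 15.3 and 15.8 in PTH, and 20.3 and 20.9 in YKL-05-093. The PTH libraries lay below the other 4. The direct log2 difference was -0.41 (SE 0.08, 95% interval -0.57 to -0.25, limma adjusted p = 0.00191), while PTH against vehicle gave -0.46 (95% interval -0.82 to -0.10, limma adjusted p = 0.249). YKL-05-093 against vehicle gave -0.06 (95% interval -0.42 to 0.30, limma adjusted p = 0.958). The direct call was lost on leaving out any 1 of its 4 libraries (-0.43 to -0.39). The PTH difference from vehicle was -0.43 without vehicle replicate 1 and -0.49 without vehicle replicate 2. Exons of Mmp11 share 155 bases with Chchd10 on the opposite strand, and the strand setting of the counting is not stated. Chchd10 had 1 to 5 reads in a library, against 660 or more for Mmp11.

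Mmp16, another membrane-anchored MMP, was at 6.49 and 4.70 RPKM in vehicle, 3.45 and 3.43 in PTH, and 4.22 and 4.85 in YKL-05-093. The PTH libraries were the lowest, and the vehicle libraries overlapped those with YKL-05-093. The direct log2 difference was -0.39 (SE 0.09, 95% interval -0.58 to -0.19, limma adjusted p = 0.0132). Against vehicle the PTH difference was -0.67 (95% interval -1.12 to -0.21, limma adjusted p = 0.179) and the YKL-05-093 difference was -0.28 (95% interval -0.76 to 0.19, limma adjusted p = 0.813). The direct call was lost without any 1 of its libraries (-0.48 to -0.29). Without vehicle replicate 2 the PTH difference from vehicle was -0.90.

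Timp3, the inhibitor that stays bound to the matrix, was at 20.4 and 16.6 RPKM in vehicle, 15.5 and 15.3 in PTH, and 19.7 and 20.7 in YKL-05-093. Again the PTH libraries were the lowest, and the vehicle libraries overlapped those with YKL-05-093. The direct log2 difference was -0.39 (SE 0.06, 95% interval -0.53 to -0.25, limma adjusted p = 0.000722). The differences from vehicle were -0.26 for PTH (95% interval -0.68 to 0.16) and 0.13 for YKL-05-093 (95% interval -0.29 to 0.55), and neither passed. As for Mmp11 and Mmp16, the direct call needed all 4 libraries (-0.43 to -0.35 with 1 left out). Without vehicle replicate 2 the PTH difference from vehicle was -0.41. Timp3 shares 1733 exon bases with Syn3 on the opposite strand, and Syn3 had 2 to 9 reads in a library, against 2489 or more for Timp3.

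Mmp9, the other gelatinase and an enzyme abundant in osteoclasts, was near the filter. It was at 0.421 and 0.477 RPKM in vehicle, 0.538 and 0.580 in PTH, and 0.476 and 0.588 in YKL-05-093, or 26 to 47 reads a library. The PTH libraries lay above vehicle and overlapped YKL-05-093. Its log2 difference from vehicle was 0.27 for PTH (95% interval -0.31 to 0.84) and 0.20 for YKL-05-093 (95% interval -0.42 to 0.82), and the direct difference was 0.07 (95% interval -0.46 to 0.59). Of 10 osteoclast and macrophage markers 9 were listed, and 2, Ctsk and Cd68, passed the filter. Their summed level was 78.2 to 90.3 RPKM in vehicle, 91.7 to 99.4 in PTH and 95.7 to 97.0 in YKL-05-093, nearly all of it Ctsk. The osteoclast markers Acp5, Calcr, Oscar and Ocstamp never exceeded 3 reads.

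Between PTH and YKL-05-093, 5 of the 9 members tested passed, 2 higher (Mmp13 and Timp1) and 3 lower (Mmp11, Mmp16 and Timp3) with PTH, beside 9.77% of 14255 genes (4.77% higher and 5.00% lower). Among these 5 members only Mmp13 differed more than 2-fold, and 1.21% of all genes tested passed with such a difference. Without PTH replicate 1, and likewise without PTH replicate 2, none of the 14255 genes passed by limma, whereas with 1 YKL-05-093 library left out, whichever it was, Mmp13 and Timp1 passed. In 1 fit of all 6 libraries, which takes in the spread of the vehicle libraries, Mmp13 was the only member to pass. With no filter on low values Timp1 was the only one, and with no trend of the spread none passed by limma.

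**Figure D3:**
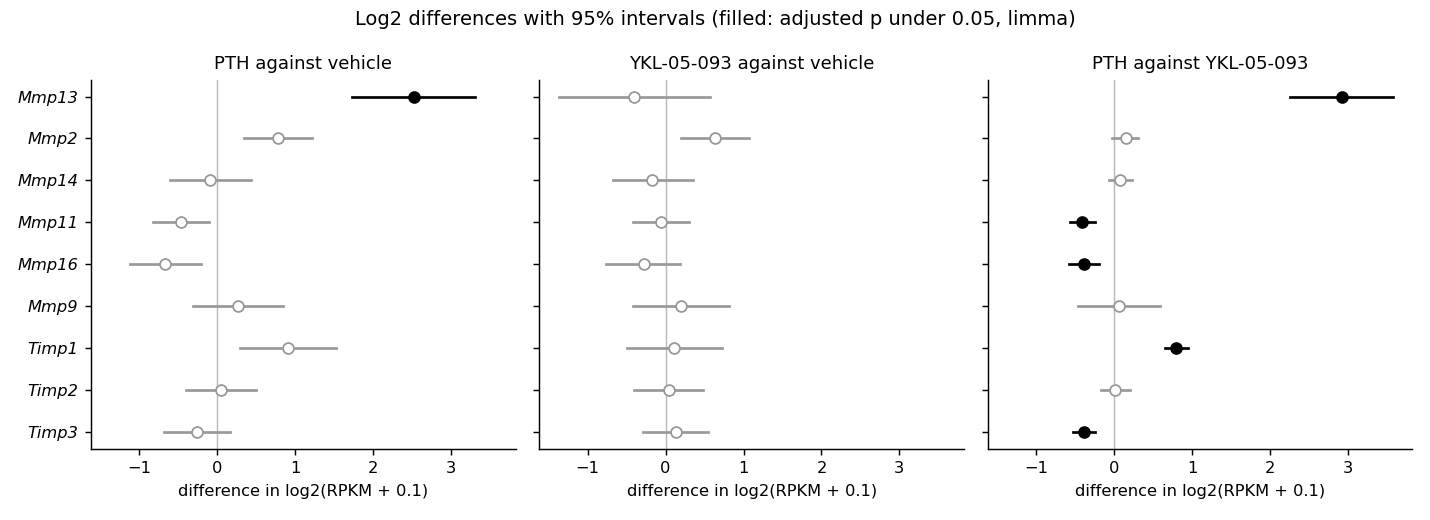
Differences in log2(RPKM + 0.1) of the 9 members tested, with 95% intervals, for PTH against vehicle, YKL-05-093 against vehicle, and PTH against YKL-05-093. Filled points passed at an adjusted p under 0.05: Mmp13 against vehicle, and Mmp13, Timp1, Mmp11, Mmp16 and Timp3 in the direct comparison.

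Most other genes of these families gave few reads. Of 16 further MMP genes, 10 never exceeded 3 reads and 3 passed the filter. Mmp19, a secreted MMP, was at 5.39 and 4.96 RPKM in vehicle, 7.40 and 7.11 in PTH, and 5.39 and 5.29 in YKL-05-093. Mmp28, epilysin, was at 3.01 and 2.27 RPKM in vehicle, 4.55 and 4.18 in PTH, and 3.07 and 3.24 in YKL-05-093. Both were higher with PTH than with YKL-05-093, by 0.43 for Mmp19 (limma adjusted p = 0.00475) and 0.45 for Mmp28 (limma adjusted p = 0.0062) on the log2 scale, and neither passed against vehicle. Without vehicle replicate 1 or 2 the PTH differences from vehicle were 0.54 and 0.42 for Mmp19, and 0.91 and 0.52 for Mmp28. Exons of both genes overlap genes on the opposite strand. Mmp19, with 321 to 544 reads in a library, shares 789 bases with Tmem198b (138 to 263 reads) and 212 with Gm47093, and Mmp28, with 260 to 485 reads, shares 466 bases with 1700020L24Rik (19 to 52 reads, the most in PTH), so their values are uncertain where strand was not used. Mmp23 ranged from 13.0 to 18.3 RPKM, with both extremes in vehicle, and passed no test.

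Among 5 other inhibitors of MMPs, Reck, a membrane-anchored glycoprotein that inhibits several MMPs, was the only one tested. It was at 8.77 and 6.34 RPKM in vehicle, 4.43 and 4.63 in PTH, and 6.09 and 6.66 in YKL-05-093. PTH libraries were the lowest, with a direct log2 difference of -0.48 (limma adjusted p = 0.00162) and a difference from vehicle of -0.71 (limma adjusted p = 0.156). The latter was -0.48 without vehicle replicate 1 and -0.94 without vehicle replicate 2. Timp4 had 8 to 32 reads in a library and was not tested.

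In the plasminogen activation system, which can activate pro-MMPs through plasmin, Plau rose with both treatments and Plaur rose with PTH. Plasminogen itself (Plg) had 0 reads in all 6 libraries, and Plat, the tissue-type activator, was at 40.3 to 48.2 RPKM with log2 differences of 0.17 for PTH and 0.10 for YKL-05-093, neither past the test. Of 11 activation and cell-surface partners tested, 2 were higher and 0 were lower with PTH by limma, where 2.19% of all genes passed. With YKL-05-093, 1 was higher and 0 were lower, where 0.645% passed. At an unadjusted p under 0.05 the totals were 2 with PTH and 3 with YKL-05-093, beside 13.3% and 8.68% of all genes. Plau, urokinase, was at 16.5 and 17.1 RPKM in vehicle, 38.1 and 38.4 in PTH, and 42.4 and 38.1 in YKL-05-093. It rose in both treatments, by 1.18 with PTH (limma adjusted p = 0.0122) and by 1.26 with YKL-05-093 (limma adjusted p = 0.0285) on the log2 scale, and the direct difference was -0.07 (95% interval -0.22 to 0.08).

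Plaur, the urokinase receptor, was at 8.72 and 11.1 RPKM in vehicle, 41.9 and 35.6 in PTH, and 14.6 and 14.3 in YKL-05-093. It rose by 1.97 with PTH (limma adjusted p = 0.00381), while the YKL-05-093 difference was 0.55 (limma adjusted p = 0.397) and the direct difference was 1.42 (limma adjusted p = 4.3e-08). In the direct comparison 3 of 11 partners were higher with PTH and 1 was lower, beside 4.77% and 5.00% of all genes. Besides Plaur, the higher ones were Lrp1 (0.64, limma adjusted p = 2.79e-05) and Furin (0.28, limma adjusted p = 0.0193). Serpine2 was lower (-0.21, limma adjusted p = 0.0474). Of 15 alternative settings, including those with 1 library left out, Lrp1 kept its call in 9, Furin in 7 and Serpine2 in 4.

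No matrix substrate passed the test against vehicle. Of 12 tested, 0 passed with PTH and 0 with YKL-05-093 by limma, and 0 had an unadjusted p under 0.05 in either. Median log2 differences of the list were 0.08 and 0.07, beside -0.03 and -0.04 over all genes tested. Between PTH and YKL-05-093, 2 substrates were higher and 1 was lower, beside 4.77% and 5.00% of all genes. On the log2 scale these were Vcan (0.37, limma adjusted p = 0.00389), Spp1 (0.37, limma adjusted p = 0.00737) and Lamc1 (-0.23, limma adjusted p = 0.0349). Of 15 alternative settings, including those with 1 library left out, Vcan and Spp1 each kept the call in 7 and Lamc1 in 5. The collagen genes Col1a1, Col1a2 and Col3a1 did not pass.

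Transcription factors and co-regulators known to act on Mmp13 were examined last. AP-1 factors bind the motif that is capitalized near the start site in the Mmp13 sequence above, Runx2 binds the RUNX motif, and Hdac4 represses Runx2 activity. Of 12 entries tested (Hdac4 is listed under 2 identifiers), 4 were higher with PTH than with vehicle, where 1.26% of all genes were, and 1 was higher with YKL-05-093, where 0.379% were. Fos, an AP-1 subunit, was at 2.60 and 3.26 RPKM in vehicle, 12.5 and 9.96 in PTH, and 7.96 and 9.26 in YKL-05-093. It rose by 1.90 with PTH (limma adjusted p = 0.00476) and by 1.53 with YKL-05-093 (limma adjusted p = 0.0283) on the log2 scale.

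Cebpb, a basic leucine zipper factor, was at 13.2 and 15 RPKM in vehicle, 42.7 and 42.2 in PTH, and 26.9 and 28.1 in YKL-05-093. It rose by 1.58 with PTH (limma adjusted p = 0.00425), and its YKL-05-093 difference was 0.96 (limma adjusted p = 0.0665). The 2 Hdac4 entries were higher with PTH by 1.66 and 1.72 on the log2 scale (limma adjusted p = 0.0178 and 0.015). With YKL-05-093 their differences were 1.09 and 1.18 (limma adjusted p = 0.141 and 0.119). Both passed in 1 limma fit of all 6 libraries (adjusted p = 0.0448 and 0.0363). Without vehicle replicate 2 the differences were 0.75 and 0.84, and without vehicle replicate 1 that of the first entry was 1.43. Runx2 was at 19.5 and 13.0 RPKM in vehicle, 7.87 and 7.02 in PTH, and 11.6 and 12.6 in YKL-05-093. Its difference from vehicle with PTH was -1.09 (limma adjusted p = 0.0632), and it was lower with PTH than with YKL-05-093 by limma (-0.69, adjusted p = 1.12e-05). Without vehicle replicate 1 the PTH difference from vehicle was -0.80, and without vehicle replicate 2 it was -1.38.

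In the direct comparison 8 of the 12 entries were higher with PTH and 3 were lower, beside 4.77% and 5.00% of all genes. Hdac4 counts under both identifiers among the higher, and the list was chosen with earlier results of these data known. Fosl1, the AP-1 subunit Fra-1, was at 3.79 and 4.51 RPKM in vehicle, 6.52 and 5.97 in PTH, and 2.11 and 2.21 in YKL-05-093. The PTH libraries were above vehicle and the YKL-05-093 libraries below it, with a direct log2 difference of 1.49 (limma adjusted p = 4.33e-06), and neither difference from vehicle passed with all libraries. In 1 fit of all 6 libraries the YKL-05-093 difference of -0.91 did (limma adjusted p = 0.0349). Without vehicle replicate 2 the PTH difference was 0.70. The lower entries were Jund (-0.71), Runx2 (-0.69) and Ets2 (-0.42). Of 15 alternative settings, including those with 1 library left out, Fosl1 kept its direct call in 13. Cebpb and Jund kept theirs in 11, Runx2 in 10, Ets2 in 8 and Fos in 3, and the Hdac4 entries in 11 and 9. Jun, Junb and Ets1 were not followed through these settings. Like Mmp13, none of the entries of this list, nor Plau or Plaur, kept its PTH call against vehicle when PTH replicate 1 or PTH replicate 2 was left out (limma adjusted p = 0.083 to 0.526). For YKL-05-093, Plau and Fos lost theirs without vehicle replicate 1 (limma adjusted p = 0.0543 and 0.0734) or without either YKL-05-093 library.

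**Figure D4:**
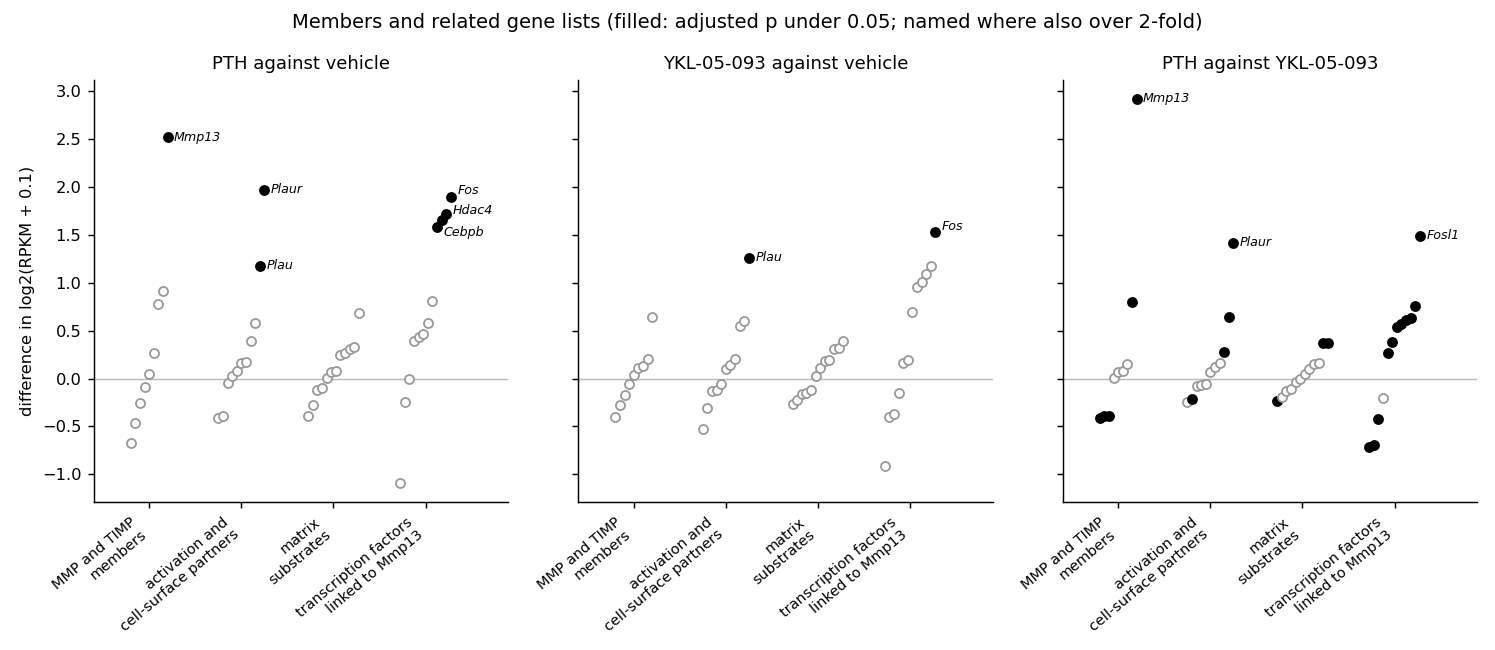
Differences in log2(RPKM + 0.1) for the 9 members tested, 11 activation and cell-surface partners, 12 matrix substrates and 12 entries for transcription factors linked to Mmp13, in the 3 comparisons. Each point is a gene, filled where the adjusted p was under 0.05 and named where the difference was also over 2-fold: Mmp13, Plaur, Plau, Fos, Hdac4 and Cebpb for PTH, Plau and Fos for YKL-05-093, and Mmp13, Plaur and Fosl1 in the direct comparison.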

How the data were processed

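The authors aligned RNA-seq reads to mm10 (GRCm38) with STAR, counted them per Ensembl gene with HTSeq and deposited RPKM values, 1 library per column, without scaling between libraries; the submitters' processing notes also name CASAVA 1.7. The strand setting of the counting is not given in the sources used here. The members and gene lists were chosen with earlier results of these data known. A gene of the activation and cell-surface list is not reported here and was left out of its counts.

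RPKM values were tested as log2(RPKM + 0.1) with limma 3.58.1 in R 4.3.3, for genes at 0.5 RPKM or more in at least 2 of 6 libraries, on the 4 libraries of each comparison, with the prior variance as a trend on mean log2 reads and Benjamini-Hochberg adjustment over all genes tested. Reads were recovered as whole multiples of the RPKM steps. Alternatives were other pseudocounts, filters, scalings and spread models, voom on recovered reads, a replicate block and leaving out each library. In simulated libraries 99.2% of 5933 genes were recovered exactly. Library totals of 17505798 to 27983585 reads set the precision. All members, the list genes past the test in any comparison (up to 5 a list), other MMPs over the filter and the 5 genes nearest to Mmp13 were named; Reck, Timp4, Runx2, Fosl1 and the marker genes were named after their values were seen. Positions come from GENCODE M21 (96% of identifiers matched) and promoters from RefSeq.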

Additional observations from a re-analysis of the deposited data

How the results depend on the processing

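The number of members past the test for PTH against vehicle was 1 and became 0 with no filter on low values, with the prior spread set by the mean level and with no trend of the spread, and 2 in 1 fit of all 6 libraries and with the replicate number as a block. For PTH against YKL-05-093 it was 5 and became 1 (Timp1) with no filter, 4 with the prior spread set by the mean level (Mmp16 lost, adjusted p = 0.118 by limma), 0 with no trend, 1 in 1 fit of all 6 libraries and 1 where a change of more than 2-fold was also required; the replicate block left it at 5. Leaving out 1 library gave 0 to 7 members for PTH against vehicle (4 without vehicle replicate 1, 7 without vehicle replicate 2, 0 without either PTH library), 0 to 3 for YKL-05-093 against vehicle (3 without vehicle replicate 2) and 0 to 2 for PTH against YKL-05-093. A comparison with 1 library left in a group takes its spread from the other pair alone, and the lone library is assumed to vary alike. Members gained in such a comparison therefore add no evidence of a difference. Without vehicle replicate 2, more of all genes passed as well than with all libraries, for PTH and for YKL-05-093. The pseudocounts, the other filters, scaling to the median of ratios and voom on recovered reads left the numbers of members as they were. Deviations of the first replicates did not correlate across conditions (-0.0336, -0.054 and -0.0494), so the replicate numbers were not taken to pair libraries, and the block added Timp1, Mmp28, Reck and Runx2 for PTH, and Cebpb, both Hdac4 entries and Fosl1 for YKL-05-093 (limma adjusted p = 0.000248 to 0.037).

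Over all results for named genes, 990 alternatives kept direction and call, 239 lost and 44 gained the call, and 14 changed sign, all on leaving out 1 library. With 1 library left out the log2 difference ran from -0.34 to 0.17 for Mmp14 and from -0.22 to 0.27 for Mmp23 with PTH. With YKL-05-093 it ran from -0.42 to 0.09 for Mmp14, -0.28 to 0.49 for Timp1, -0.02 to 0.09 for Timp2, -0.02 to 0.28 for Timp3, -0.18 to 0.32 for Mmp23, -0.01 to 0.10 for Mmp19 and -0.45 to 0.01 for Reck. Between PTH and YKL-05-093 it ran from -0.01 to 0.04 for Timp2, -0.06 to 0.20 for Mmp9, -0.11 to 0.02 for Mmp23 and -0.15 to 0.01 for Plau. The cause was not tested. The PTH difference of Mmp13 kept its direction throughout, with a limma adjusted p of 3.87e-13 (replicate block) to 0.219, and was 1.28 with a pseudocount of 1 RPKM. The number of all genes past the test was 313 for PTH against vehicle, with 0 under no filter, 162 with the prior spread set by the mean level, 130 with no trend, 565 in 1 fit of all 6 libraries and 760 with the replicate block. For YKL-05-093 against vehicle it was 92, with 0, 6, 29, 282 and 302, and 55 with a pseudocount of 1 RPKM and 56 with a filter at 0.1 RPKM. Between PTH and YKL-05-093 it was 1393, with 295, 499, 51 and 143 for the same alternatives without the block. Without 1 library it ran from 14 to 4484, 11 to 2723 and 0 to 394. Depth limits the low genes, since the floor of 3 reads equals 0.0600 to 0.0958 RPKM for Mmp3.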
